A study of Mus musculus with 12 samples.

Results

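The MHC class II genes are 10 mouse genes that build the class II molecule, load it with peptide or switch its genes on: H2-Aa, H2-Ab1, H2-Eb1, H2-DMa, H2-DMb1, H2-DMb2, Cd74, Ciita, H2-Oa and H2-Ob. They were chosen by name, all 10 are among the 31053 genes listed for the study, and all 10 had UMIs in both depots. The study sequenced single cells of the stromal vascular fraction (SVF), the cells that remain when fat is digested with collagenase and the floating adipocytes are removed, from epididymal (eWAT) and inguinal (iWAT) white adipose tissue of male mice aged 12 weeks. There were 3 groups: lean C57BL/6J mice given vehicle (WT-Veh), leptin-deficient Lepob/Lepob mice given vehicle (ob/ob-Veh), and Lepob/Lepob mice given 30 mg/kg rosiglitazone, a PPARγ agonist, by oral gavage morning and evening for 3 days (ob/ob-Rosi). Each group had 2 libraries per depot, 12 in all, and each library is the fat of 1 mouse, so p-values rest on the spread between 2 mice per group. The germline Lepob mutation acts in the whole animal, and hyperphagia and obesity come with it, so nothing here separates leptin from fat mass.

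MHC class II molecules show peptides from engulfed proteins to CD4 T cells. In the mouse, H2-Aa and H2-Ab1 encode the alpha and beta chains of the molecule I-A, and H2-Eb1 the beta chain of I-E. C57BL/6 mice carry a defective alpha chain gene for I-E, so their H2-Eb1 transcript is made without an I-E molecule at the surface. Cd74 encodes the invariant chain, which guides new class II molecules to endosomes and leaves the CLIP peptide in their groove. H2-DMa pairs with H2-DMb1 or H2-DMb2 to form H2-M, which swaps CLIP for other peptides. H2-Oa and H2-Ob form H2-O, which restrains H2-M, mainly in B cells and some dendritic cells. Ciita is the co-activator that class II promoters need, and interferon-γ induces it in many cell types. Dendritic cells, B cells and many macrophages express class II genes in mice, resting mouse T cells do not, and in fat the macrophages that take up debris are a large class II population.

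The 8 members whose names begin with H2 lie together on mouse chromosome 17, for example H2-Oa at 34092340 to 34095234, H2-DMb2 at 34143307 to 34151555, H2-DMb1 at 34153072 to 34160230 and H2-Aa, on the minus strand, at 34282744 to 34287823 (GRCm38, the mm10 build). Ciita and Cd74 lie on other chromosomes. Class II promoters share the boxes through which Ciita acts, and 6 windows of 100 bases are printed, each with the Y box core GATTGG in capitals and, where it was found, the X box letters AACNGATG or the shorter X box letters GCAAC in capitals as well. The RefSeq promoter table used here (GRCm38.p6) was read for the members other than Cd74. It gave promoters for 7 of them, and the windows run 5′ to 3′ in the sense of the gene.
H2-Aa: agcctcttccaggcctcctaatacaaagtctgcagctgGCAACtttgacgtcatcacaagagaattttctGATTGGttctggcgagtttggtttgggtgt
H2-Eb1: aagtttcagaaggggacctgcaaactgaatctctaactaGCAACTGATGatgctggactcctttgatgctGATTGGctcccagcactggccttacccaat
H2-DMb1: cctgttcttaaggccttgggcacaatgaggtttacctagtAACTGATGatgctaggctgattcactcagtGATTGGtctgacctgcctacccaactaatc
H2-DMb2: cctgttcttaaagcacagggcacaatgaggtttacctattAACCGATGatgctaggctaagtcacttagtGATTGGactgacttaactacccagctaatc
H2-Oa: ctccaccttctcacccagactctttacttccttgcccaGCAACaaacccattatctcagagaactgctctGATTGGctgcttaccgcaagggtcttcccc
H2-Ob: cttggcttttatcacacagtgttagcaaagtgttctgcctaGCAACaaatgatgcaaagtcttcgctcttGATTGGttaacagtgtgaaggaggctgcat

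On the minus strand the H2-Aa window is chr17:34287843-34287942, and the other 5 are on the plus strand: H2-Eb1 chr17:34305737-34305836, H2-DMb1 chr17:34153059-34153158, H2-DMb2 chr17:34145088-34145187, H2-Oa chr17:34092265-34092364 and H2-Ob chr17:34238777-34238876. With Cd74 left out, 8 member promoters of 300 bases were read, which cover 7 genes. GATTGG, on either strand, was in 7 of these 8 and in 16.1% of the 32851 promoters of the table. AACNGATG was in 3 of the 8 and in 2.32% of all, and GCAAC in 5 of the 8 and in 35.2% of all, and these letters overlap in H2-Eb1. The capitals show letters, not measured binding. H2-DMb1 and H2-DMb2 share part of their transcript sequence: of the 411 runs of 90 bases in the last 500 bases of H2-DMb1, 52 also occur in H2-DMb2, while 0 of the 411 in the last 500 bases of H2-DMb2 occur in H2-DMb1. Reads in such runs cannot be assigned to a single gene, so in this 3′ method H2-DMb1 counts are uncertain to that extent.

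Cells were clustered without any class II gene, and clusters were named from markers that are not class II genes. A cluster's leading genes, read as a check on its name, were taken from all genes, so class II genes could take places among them. Clusters were named macrophage-like from C1qa, Lyz2, Csf1r and others, or from non-perivascular and monocyte markers (Ear2, Ccr2 and others). Macrophage-like cells numbered 27440 of 57613 kept cells in eWAT and 21435 of 68482 in iWAT. DC-like cells (dendritic cells; Flt3, Clec9a and others) numbered 2664 and 1814, B-like cells 488 and 2235, endothelial EC-like cells 3385 and 8246, and stromal APC-like cells (adipocyte progenitor cells, not antigen-presenting cells) 17564 and 19831. Macrophage-like cells were divided into perivascular (PVM-like; Lyve1, Cd163), lipid-associated (LAM-like; Trem2, Gpnmb) and non-perivascular (NPVM-like; Ear2, Ccr2) parts, and the eWAT and iWAT clusters that matched none of these stayed without a part.

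The 12 libraries held 20132553 to 92475986 UMIs, with a median of 1132 to 4961 UMIs per kept cell. The iWAT library labelled WT-Veh 1 stood apart, with the lowest median, 10409 of its 17063 cells unnamed and 1901 of the 2235 iWAT B-like cells. Libraries shared at most 99 cell barcodes, 1.05% of the smaller library or less. Lep, the mutated gene, keeps its transcript in ob/ob mice. It gave 28.0 and 42.5 UMIs per 100 Adipoq UMIs under the label WT-Veh in eWAT, 3.96 and 16.2 under ob/ob-Veh and 240.0 and 390.1 under ob/ob-Rosi. In iWAT these were 20.1 and 31.6, 36.4 and 15.1, and 164 and 141. A Lep level therefore does not test the genotype, and the groups are named by label: a value under WT-Veh, ob/ob-Veh or ob/ob-Rosi is that of a library so labelled, and every direction given rests on the labels. Whether labels could have been exchanged was not tested here, and an exchange of WT-Veh and ob/ob-Veh would turn the sign of every ob/ob effect and put the Rosi effect in the place of what is given here as ob/ob-Rosi against WT-Veh, and the reverse.

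Levels are CPM, the UMIs of a gene scaled by all UMIs of a class summed within a library. Cd74 was the most abundant member and DC-like cells held the most of it. In eWAT its level there was 17370 to 33200 CPM, against 3841 to 11020 CPM in macrophage-like cells, 5571 to 13810 CPM in B-like cells, 3016 to 3811 CPM in T/NK/ILC cells, 843 to 1557 CPM in EC-like cells and 242 to 640 CPM in APC-like cells. DC-like cells lay above every other class in all 6 eWAT libraries. The ranges of macrophage-like and B-like cells overlapped. Within a library, B-like cells were higher under the labels WT-Veh and ob/ob-Rosi and lower in both ob/ob-Veh libraries. In iWAT the levels were 9479 to 27730 CPM in DC-like, 4087 to 11460 CPM in macrophage-like, 3070 to 18020 CPM in B-like, 1479 to 2492 CPM in T/NK/ILC, 239 to 908 CPM in EC-like and 211 to 437 CPM in APC-like cells. These ranges overlapped between DC-like, macrophage-like and B-like cells and between EC-like and APC-like cells. Within every iWAT library DC-like cells still lay above the other classes. EC-like cells lay above APC-like cells in each, though by little in ob/ob-Veh 2 (440 against 437 CPM). These levels are a description without a test, since clusters define the classes.

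H2-Aa was at 8588 to 13030 CPM in eWAT DC-like cells and 1510 to 5050 CPM in eWAT macrophage-like cells. Ciita, the switch, was at 91.9 to 171 CPM in eWAT DC-like cells and 24.8 to 69.3 CPM in macrophage-like cells. The H2-O genes were nearly absent from eWAT macrophage-like cells, at 0.370 to 2.23 CPM for H2-Oa and 0.832 to 8.51 CPM for H2-Ob, and stood at 59.7 to 166 CPM and 62.8 to 130 CPM in DC-like cells. B-like cells held 39.9 to 287 CPM of H2-Oa and 104 to 287 CPM of H2-Ob in eWAT. So the H2-O genes separated macrophage-like cells from DC-like and B-like cells more widely than the genes of I-A did.

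**Figure D1:**
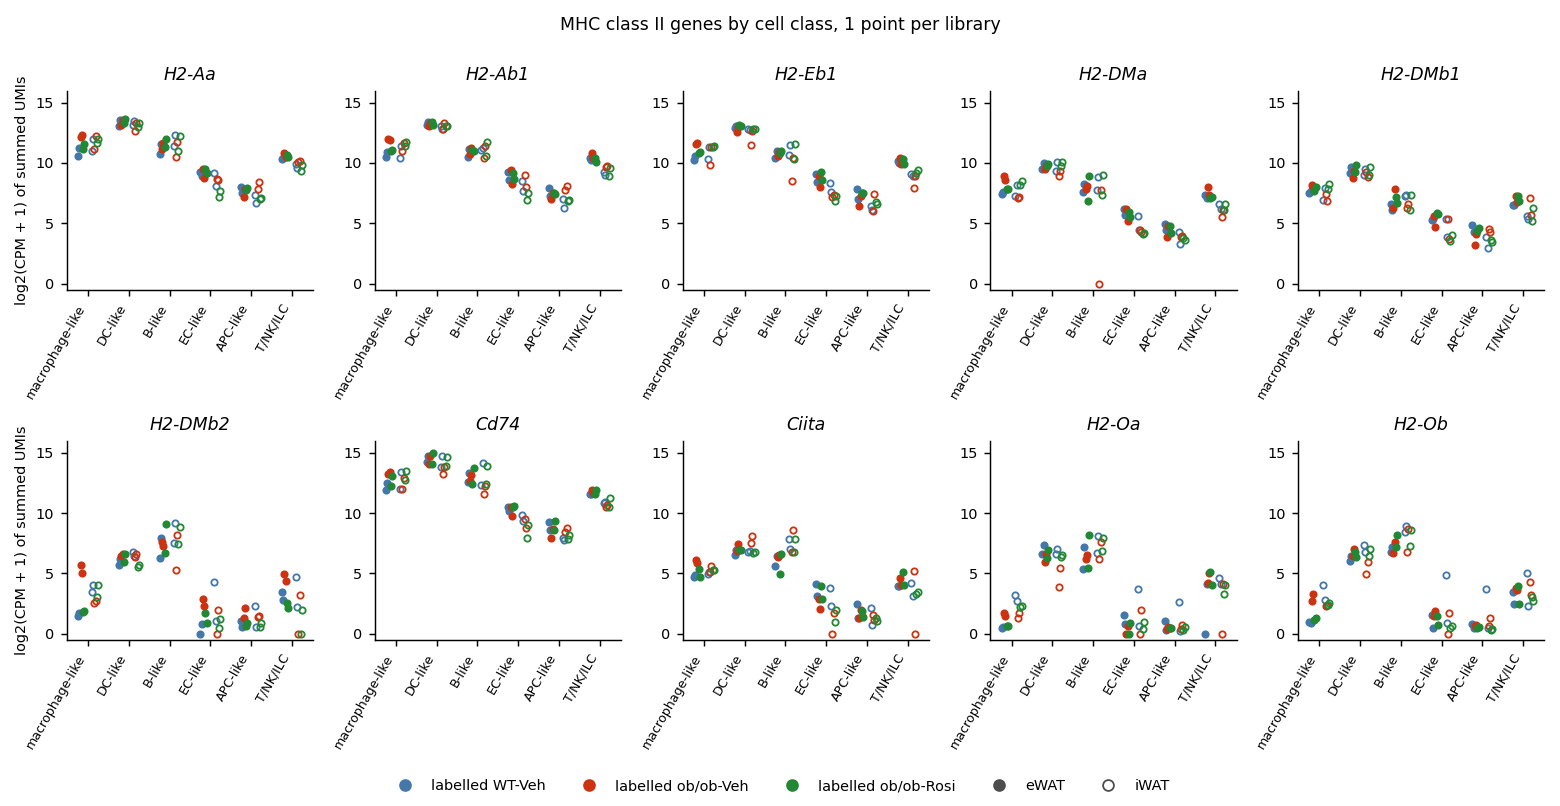
Level of each member by cell class, as log2(CPM + 1) of summed UMIs on the vertical axis, with 1 point per library, filled for eWAT and open for iWAT and coloured by label. DC-like cells lie highest for H2-Aa, H2-Ab1, H2-Eb1 and Cd74, EC-like and APC-like cells lie below T/NK/ILC cells for these genes, and H2-DMb2, H2-Oa and H2-Ob are highest in B-like or DC-like cells.

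The ratio of H2-DMb2 to H2-DMb1 UMIs had a median of 1.71 in eWAT and 2.59 in iWAT B-like cells, and of 0.102 and 0.126 in DC-like cells. In eWAT macrophage-like cells it was 0.0100 and 0.0110 under the label WT-Veh, 0.173 and 0.124 under ob/ob-Veh, and 0.0119 and 0.0105 under ob/ob-Rosi, and the ob/ob-Veh values did not overlap the others. The same held in eWAT DC-like cells, where the ratio was 0.200 and 0.148 under ob/ob-Veh and 0.0901 to 0.105 in the others. In eWAT EC-like, APC-like and T/NK/ILC cells it was 0.134 to 0.207 under ob/ob-Veh and 0.108 or less in the others. Mural-like cells had 0.4 and 0.2 under ob/ob-Veh and 0 in the others with enough cells, on as few as 5 H2-DMb1 UMIs in a library. The pattern did not hold in eWAT mesothelial-like cells, where WT-Veh 1 was highest at 0.174, or in eWAT B-like cells, where ob/ob-Veh 2 was lowest at 0.648. Nor did it hold in iWAT, where ob/ob-Veh values overlapped the others. In iWAT macrophage-like cells the ratio was 0.0287 and 0.0488 under ob/ob-Veh and 0.0323 to 0.0831 in the others. WT-Veh 1 was highest in iWAT EC-like, APC-like and T/NK/ILC cells, at 0.452, 0.286 and 0.514. In B-like cells the ratio rested on as few as 10 H2-DMb1 UMIs in a library of eWAT and 2 in a library of iWAT, where it ran from 0.5 to 3.6. Another ratio set a library apart: H2-Eb1 per H2-Ab1 UMI was lowest in the iWAT library labelled ob/ob-Veh 1 in every class, at 0.465 in macrophage-like, 0.397 in DC-like, 0.270 in B-like, 0.282 in EC-like, 0.305 in APC-like and 0.299 in T/NK/ILC cells, against 0.793, 0.647, 0.511, 0.642, 0.654 and 0.573 in the same order in the other library of that label. Both ob/ob-Veh values lay below the other 4 libraries in each of these classes.

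**Figure D2:**
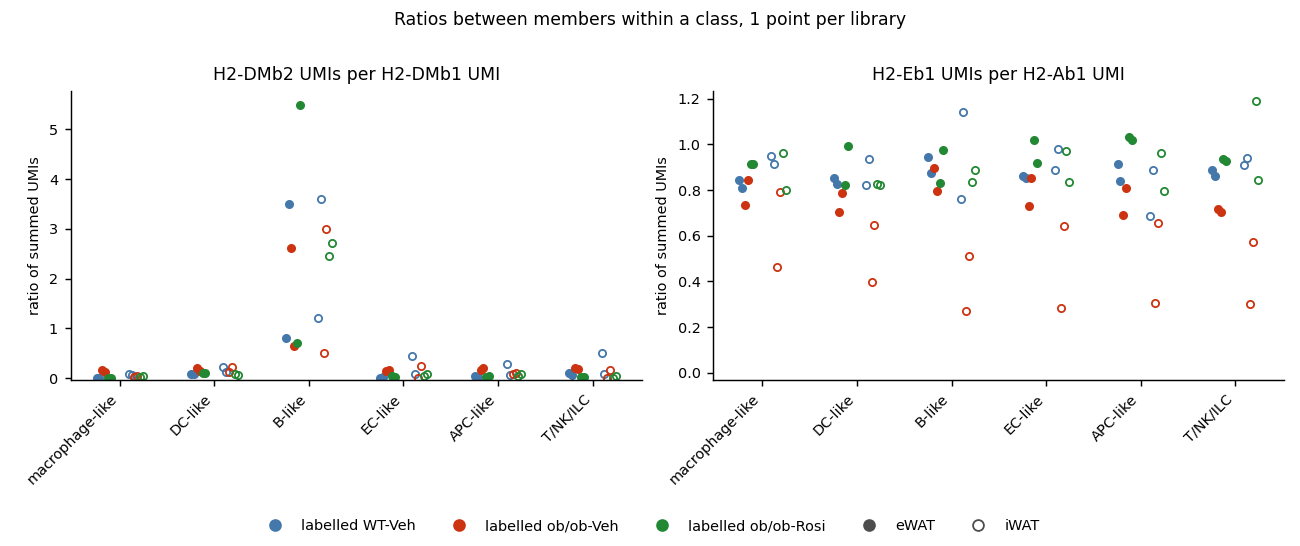
Ratio of H2-DMb2 to H2-DMb1 UMIs (left) and of H2-Eb1 to H2-Ab1 UMIs (right) within a class, on linear axes, with 1 point per library. The B-like medians, 1.71 in eWAT and 2.59 in iWAT, stand above the other classes on the left, with the lowest B-like point at 0.5, and on the right the lowest point of each class is the iWAT library labelled ob/ob-Veh 1.

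In the main clustering most class II UMIs came from macrophage-like cells in 11 of the 12 libraries. In eWAT these gave 62.9% to 78.2% of the UMIs of the 10 genes and DC-like cells 14.5% to 26.4%. The eWAT DC-like median of 20.8% was 8.85% at clustering resolution 0.5, 8.13% at resolution 2 and 6.41% with cells holding other classes' genes removed. In iWAT macrophage-like cells gave 31.8% to 84.7% and DC-like cells 6.00% to 34.3%, with a median of 9.71% that was 32.8% at clustering resolution 0.5. The low iWAT macrophage share was that of the library labelled WT-Veh 1, where unnamed cells held 33.9% and B-like cells 17.7%. Under the label ob/ob-Veh the iWAT macrophage share of 50.3% and 57.8% became 7.60% and 4.52% with class II genes in the clustering and 6.01% and 3.66% at resolution 0.5, where the PVM-like cluster of that label was unnamed. At resolution 2 this share was 29.2% and 24.0%. APC-like cells gave 14.1% and 10.7% under the label ob/ob-Veh in iWAT and at most 2.24% in the others, and the clusters that make up these cells differ by label.

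EC-like and APC-like cells were set against T/NK/ILC cells, of which the T and NK cells should lack class II transcripts. Among cells thinned to 700 UMIs each, 29.03% to 37.36% of eWAT EC-like cells and 13.9% to 26.9% of eWAT APC-like cells held a Cd74 UMI, against 38.8% to 59.5% of T/NK/ILC cells. Unthinned shares were 51.6% to 80.5%, 40.9% to 79.0% and 49.3% to 84.4%, at median depths of 1854 to 4721, 1349 to 6627 and 883.5 to 2393 UMIs. In each eWAT library the thinned share of EC-like and APC-like cells with H2-Aa, H2-Ab1 or Cd74 lay at or below that of T/NK/ILC cells, so these shares are not read as expression by EC-like or APC-like cells. In iWAT the same held in every library except that labelled WT-Veh 1, whose EC-like cells held H2-Aa in 39.2% against 36.6%, H2-Ab1 in 28.3% against 23.2% and Cd74 in 52.3% against 41.0% of T/NK/ILC cells. Cd74 stood to C1qa, a macrophage gene, at 1.63 to 4.99 in eWAT EC-like cells and 1.52 to 5.55 in eWAT APC-like cells, against 1.41 to 3.79 in macrophage-like cells, and at 2.67 to 28.9 in T/NK/ILC cells. With called doublets removed, the summed median level of H2-Aa, H2-Ab1, H2-Eb1 and Cd74 in eWAT EC-like cells went from 2992 to 1877 CPM. With cells holding other classes' genes removed, it went to 957 CPM there. This also took it from 964 to 648 CPM in eWAT APC-like and from 7141 to 1280 CPM in eWAT T/NK/ILC cells. So a share below that of T/NK/ILC cells does not show that expression is absent. The part of free RNA in these levels was not tested.

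**Figure D3:**
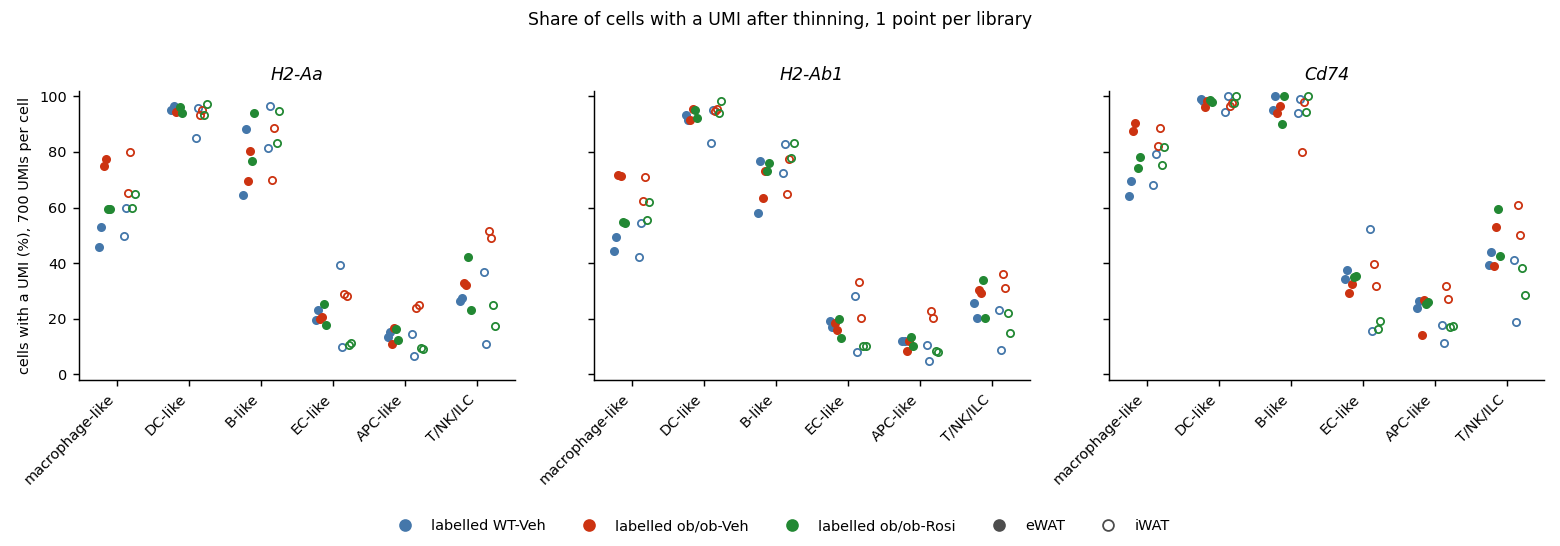
Share of cells with at least 1 UMI of H2-Aa, H2-Ab1 or Cd74 after each cell was thinned to 700 UMIs, in percent, with 1 point per library. Cd74 reaches 80% or more of DC-like and B-like cells, and EC-like and APC-like cells lie in the range of T/NK/ILC cells or lower, apart from the EC-like cells of the iWAT library labelled WT-Veh 1.

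The question was then whether these genes differed with genotype and with rosiglitazone within a class. For each depot, UMI sums of its 6 libraries entered 1 fit, tested by edgeR's quasi-likelihood method. The ob/ob effect sets ob/ob-Veh over WT-Veh and the Rosi effect sets ob/ob-Rosi over ob/ob-Veh, both as log2 ratios. Calls needed 1.1-fold or more and an adjusted p no higher than 0.05. The 2 effects share the ob/ob-Veh libraries, so opposite signs between them are no independent support for each other. Fewer expressing cells in a class and less RNA per cell cannot be told apart in such sums.

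In eWAT macrophage-like cells 8 of the 10 members were called higher under the label ob/ob-Veh, among them the 3 class II chain genes and Ciita, while the loading genes Cd74 and H2-DMb1 did not pass. H2-Aa was at 1510 and 2370 CPM under the label WT-Veh, 4647 and 5050 CPM under ob/ob-Veh and 2315 and 3023 CPM under ob/ob-Rosi. H2-Ab1 was at 1438 and 1877, 4130 and 3738, and 2000 and 2121 CPM, and H2-Eb1 at 1212 and 1519, 3041 and 3155, and 1825 and 1936 CPM, in the same order. For each of these 3 genes the ob/ob-Veh values did not overlap the others. Cd74 was at 3841 and 5813, 9445 and 11020, and 4893 and 8708 CPM, and Ciita at 24.8 and 28.6, 69.3 and 57.9, and 39.6 and 25.1 CPM. The parts of this class differed by label. In the same order it held 8672 and 2937, 2891 and 2465, and 5410 and 5065 cells. Of these, 5966 and 1903, 69 and 103, and 3610 and 3934 were LAM-like. PVM-like cells were 2113 and 861, 1894 and 1840, and 1164 and 505. How far this mix bears on the effects in the whole class was not tested.

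The fitted ob/ob effect was 1.14 ± 0.27 for H2-Aa (log2 ± SE, edgeR adjusted p = 0.0133), 1.07 ± 0.23 for H2-Ab1 (0.00949), 1.00 ± 0.22 for H2-Eb1 (0.0102), 1.1003 ± 0.23 for H2-DMa (0.00901) and 1.08 ± 0.26 for Ciita (0.0150). The largest effects were those of the least abundant members, 4.21 ± 0.34 for H2-DMb2 (adjusted p = 0.000127), 2.78 ± 0.40 for H2-Ob (0.00185) and 2.04 ± 0.52 for H2-Oa (0.0191). That of H2-Oa rested on as few as 10 UMIs in a library. H2-DMb2 was at 1.78 and 2.20 CPM under the label WT-Veh, 51.0 and 31.7 CPM under ob/ob-Veh and 2.42 and 2.73 CPM under ob/ob-Rosi. Cd74 (0.90 ± 0.31, adjusted p = 0.0564) and H2-DMb1 (0.36 ± 0.24, adjusted p = 0.275) did not pass. In all, 8 of 10 members were called higher and 0 lower, where 27.1% of the 13530 genes tested were called and 12.7% were called higher. The members' median was 1.09, against 0.0037 for all genes.

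With rosiglitazone, 6 members were called lower in eWAT macrophage-like cells, where 28.8% of all genes were called and 13.7% were called lower. H2-DMb2 fell by 3.78 ± 0.33 on the log2 scale (edgeR adjusted p = 0.0002), H2-Ob by 2.18 ± 0.38 (0.0038), H2-Oa by 1.64 ± 0.51 (0.0362), Ciita by 0.77 ± 0.26 (0.0470), H2-DMa by 0.72 ± 0.23 (0.0412) and H2-Ab1 by 0.71 ± 0.23 (0.0403). H2-Aa, at −0.63 (adjusted p = 0.0961), H2-Eb1, at −0.50 (0.108), Cd74, at −0.36 (0.413), and H2-DMb1, at −0.02, did not pass. Set against WT-Veh, ob/ob-Rosi gave 0 edgeR calls among the 10 members and 0.0% of all genes in eWAT macrophage-like cells, and likewise 0 and 0.0% in iWAT. In each depot 1 member had an unadjusted p under 0.05, and DESeq2 called 0. The members still leaned above WT-Veh. In eWAT all 10 were above 0, with a median of 0.41 against 0.0045 for all genes. In iWAT 7 of 10 were above 0, with a median of 0.34 against −0.0032. So the lack of calls does not show that levels were alike.

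**Figure D4:**
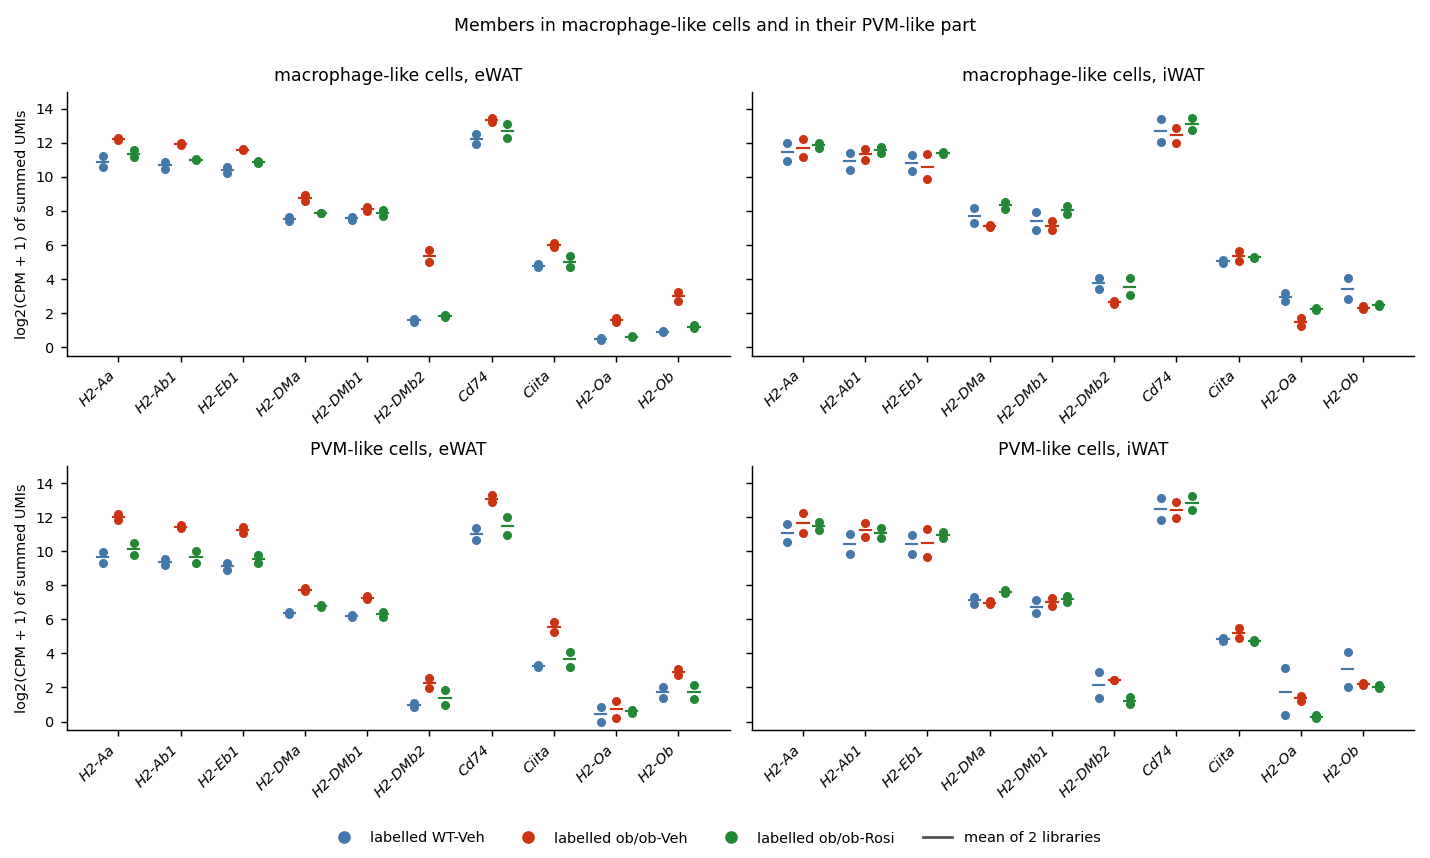
Level of each member in macrophage-like cells (top) and in their PVM-like part (bottom), as log2(CPM + 1) of summed UMIs, with 1 point per library and a line at the mean of the 2 libraries of a label. In eWAT the points labelled ob/ob-Veh lie above the others for nearly all members, while in iWAT the labels overlap for most.

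Of these macrophage calls, 5 of the 8 in the ob/ob effect were lost when 1 cluster was left out. That cluster had no part name, held the highest H2-Aa level of the eWAT macrophage-like clusters (H2-Aa at 6255 to 8412 CPM and Cd74 at 12620 to 22680 CPM over the libraries) and made up 23.5% of the macrophage-like cells labelled ob/ob-Veh, against 2.78% and 5.02% of those labelled WT-Veh and ob/ob-Rosi. Without it, an alternative chosen after seeing the data, 3 members were called higher in the ob/ob effect in place of 8: H2-Aa (0.97 ± 0.31, adjusted p = 0.0374), H2-DMb2 (1.45 ± 0.41, adjusted p = 0.0216) and H2-Ob (2.65 ± 0.41, adjusted p = 0.00195). The 5 others were still above 0, at 0.66 ± 0.26 for H2-Ab1 (adjusted p = 0.0731), 0.73 ± 0.26 for H2-Eb1 (0.0540), 0.24 ± 0.22 for H2-DMa (0.430), 0.75 ± 0.29 for Ciita (0.0745) and 1.17 ± 0.76 for H2-Oa (0.258). In the Rosi effect H2-Ob alone was called, at −2.19 ± 0.40 (adjusted p = 0.00303), and H2-DMa moved from −0.72 to 0.08. Within that cluster H2-Aa differed little by label, at 6409 and 7937 CPM, 6255 and 6640 CPM, and 6943 and 8412 CPM, while H2-DMb2 was at 25 and 41.1 CPM, 124 and 132 CPM, and 16.5 and 32.2 CPM.

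Markers of NPVM or monocyte, DC and B cells moved with the macrophage result. In eWAT macrophage-like cells the 10 NPVM or monocyte markers summed to 462 and 358 CPM under the label WT-Veh, 3864 and 3114 CPM under ob/ob-Veh and 894 and 513 CPM under ob/ob-Rosi. Of the 10, 7 were higher in both ob/ob-Veh libraries than in all the others and 1 was lower. The 13 DC markers summed to 780 and 1037, 1338 and 1379, and 655 and 459 CPM, with 6 of the 13 higher and none at 0 in all libraries. The DC marker Cd209a was at 164 and 125 CPM under the label ob/ob-Veh and at 3.04 to 14.0 CPM in the others. The 8 B markers summed to 222 and 301, 405 and 683.5, and 139 and 130 CPM in the same order of labels. Of these 8, 4 were higher in both ob/ob-Veh libraries and 0 lower in both. The sum of the 12 T, NK and ILC markers went the other way, at 104 and 105, 31.8 and 29.8, and 206 and 128 CPM. By single markers the 12 did not, with 1 higher in both ob/ob-Veh libraries and 1 lower in both. The part of such cells in the class II levels was not tested.

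Single libraries and settings moved these counts. The ob/ob effect gave 8 calls over all 6 libraries, and 2 without WT-Veh 1, 6 without WT-Veh 2, 2 without ob/ob-Veh 1, 5 without ob/ob-Veh 2, and 9 without either ob/ob-Rosi library. The Rosi effect gave 6 calls, and 2 without any single library other than ob/ob-Rosi 1, without which it gave 3. H2-DMb2 and H2-Ob were called in both effects whichever library was left out. With each cell thinned to 700 UMIs, H2-Oa and H2-Ob were too low to be tested, and 4 members were called in the ob/ob effect (H2-Aa, H2-Ab1, H2-DMb2 and Ciita) and 1 in the Rosi effect (H2-DMb2). The Rosi effect gave 2 calls with cells holding other classes' genes removed (H2-DMb2 and H2-Ob, with H2-Oa untested) and 3 with class II genes in the clustering (H2-Ab1, H2-DMb2 and H2-Ob).

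Within PVM-like cells, the macrophages that lie along vessels, which do not include that cluster, the class II genes also differed in eWAT. H2-Aa was at 627 and 1007 CPM under the label WT-Veh, 3602 and 4683 CPM under ob/ob-Veh and 860 and 1415 CPM under ob/ob-Rosi. Cd74 was at 1601 and 2601, 7450 and 9969, and 1977 and 4052 CPM, and Ciita at 8.34 and 9.19, 56.7 and 36.6, and 16.1 and 8.29 CPM. The ob/ob-Veh values lay above all others for these 3 genes. Of the 9 members tested, 7 were called higher in the ob/ob effect, with 3.34% of genes called and 1.49% called higher: Ciita by 2.31 ± 0.34 (log2 ± SE, edgeR adjusted p = 0.00847), H2-Aa by 2.23 ± 0.35 (0.0123), H2-Eb1 by 2.03 ± 0.30 (0.00817), H2-Ab1 by 1.97 ± 0.31 (0.0125), Cd74 by 1.94 ± 0.40 (0.0337), H2-DMa by 1.28 ± 0.22 (0.0165) and H2-DMb1 by 0.97 ± 0.22 (0.0471). H2-DMb2, at 1.91, and H2-Ob, at 1.38, did not pass, and H2-Oa was too low to be tested.

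In the Rosi effect 4 of the 9 were called lower in these cells, where 2.45% of genes were called and 0.866% were called lower: Ciita fell by 1.78 ± 0.34 (log2 ± SE, edgeR adjusted p = 0.0310), H2-Aa by 1.72 ± 0.35 (0.0365), H2-Ab1 by 1.59 ± 0.31 (0.0322) and H2-Eb1 by 1.53 ± 0.29 (0.0296). Different clusters hold the PVM-like cells of different labels: in eWAT 98.2% of the cells of cluster 6 carried the label ob/ob-Veh, and 1.82% of those of cluster 2 did. The 10 macrophage markers summed to 17170 and 21270 CPM in PVM-like cells labelled ob/ob-Veh and to 26870 to 37080 CPM in the others. Of the 10 NPVM or monocyte markers 5 were higher in both ob/ob-Veh libraries, with sums of 379 and 437 CPM there and 96.0 to 193 CPM in the others. Of the 13 DC markers 6 were higher in both, but their sums overlapped, at 1905 and 1642 CPM against 1189 to 1906 CPM. What share of the difference these hold was not tested. The PVM-like calls of the ob/ob effect fell from 7 to 0 without WT-Veh 1 or without WT-Veh 2, to 5 without ob/ob-Veh 1 and to 4 without ob/ob-Veh 2, and stayed at 7 without either ob/ob-Rosi library. Those of the Rosi effect fell from 4 to 0 or 1 whichever library was left out.

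This fit called no member in eWAT LAM-like or NPVM-like cells. In LAM-like cells edgeR called 0 of 10 in either effect, with 6 and 3 at an unadjusted p under 0.05 and 1 and 0 called by DESeq2, where 2.64% and 1.78% of genes were called. A replicate block in the fit gave calls for H2-Aa, Ciita and H2-Ob in the ob/ob effect of these cells. In NPVM-like cells 0 of 7 were called, with 1 and 0 at an unadjusted p under 0.05 and 0 called by DESeq2, where 0.661% and 1.23% were called. The eWAT libraries labelled ob/ob-Veh held 69 and 103 LAM-like cells, against 1903 to 5966 in the others, which limits what the LAM-like test can show.

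In iWAT macrophage-like cells most members overlapped between labels. H2-Aa was at 1989 and 3987 CPM under the label WT-Veh, 2336 and 4835 CPM under ob/ob-Veh and 3281 and 4122 CPM under ob/ob-Rosi. H2-Oa was called lower in the ob/ob effect, by −2.11 ± 0.42 (edgeR adjusted p = 0.0177), at 8.18 and 5.69, 1.38 and 2.25, and 3.52 and 3.98 CPM, where 14.3% of genes were called. This call rested on as few as 8 H2-Oa UMIs in a library. H2-DMa was called higher in the Rosi effect, by 1.47 ± 0.36 (adjusted p = 0.0234), at 134 and 142 CPM under the label ob/ob-Veh and 281 and 365 CPM under ob/ob-Rosi, where 23.1% were called. H2-DMb2 was 1.51 lower on the log2 scale in the ob/ob effect and did not pass (adjusted p = 0.0630).

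These iWAT calls depended on the libraries labelled ob/ob-Veh and on the setting. The H2-Oa call was lost with cells thinned, at resolution 0.5 or 2, with class II genes in the clustering and in macrophage-like cells of a named part, and H2-Oa was not tested with cells holding other classes' genes removed. The H2-DMa call was lost at resolution 0.5 and with class II genes in the clustering. Without either of them no member was called in either effect, H2-DMa was not called without ob/ob-Rosi 2, and without either WT-Veh library 4 or 2 members were called in the ob/ob effect and 4 in the Rosi effect. In PVM-like cells edgeR called 0 of 10 in either effect, with 0 and 2 at an unadjusted p under 0.05 and 0 and 1 called by DESeq2, where 5.08% and 10.1% of genes were called. In LAM-like cells Ciita was called in both effects, 2.33 ± 0.44 higher (adjusted p = 0.0112) and 1.505 ± 0.41 lower on the log2 scale (adjusted p = 0.0404), where 8.52% and 9.37% were called. It was at 21.3 and 17.6, 73.1 and 219, and 37.6 and 29.2 CPM, on 79 and 35 cells under the label ob/ob-Veh, and both calls were lost without either ob/ob-Veh library, the Rosi call also without either ob/ob-Rosi library, and both at resolution 0.5 or with cells thinned to 700 UMIs. With cells holding other classes' genes removed, too few were left to test. In iWAT 95.6% of macrophage-like cells labelled ob/ob-Veh lay in cluster 5, while for the other labels the main cluster differed by library: cluster 0 held 2818 cells of WT-Veh 2 and 4844 of ob/ob-Rosi 2 but 13 of WT-Veh 1 and 112 of ob/ob-Rosi 1, and cluster 7 held 871 and 2030 cells of the latter pair.

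In iWAT DC-like cells the H2-O genes were lower under the label ob/ob-Veh. H2-Oa was at 95.5 and 127 CPM under the label WT-Veh, 13.4 and 41.8 CPM under ob/ob-Veh and 80.4 and 91.7 CPM under ob/ob-Rosi. H2-Ob was at 165 and 110, 28.98 and 58.95, and 86.8 and 127 CPM, and for both genes the ob/ob-Veh values did not overlap the others. H2-Oa fell by 2.54 ± 0.55 (log2 ± SE, edgeR adjusted p = 0.0234) and H2-Ob by 2.04 ± 0.47 (0.0277) in the ob/ob effect, the only 2 of 10 called, where 8.86% of genes were. Both genes' calls in either effect were lost with cells thinned to 700 UMIs (adjusted p from 0.0531 to 0.0921) and at resolution 0.5 (−1.38 and −0.81 in the ob/ob effect), those of H2-Ob without TMM scaling, and with cells holding other classes' genes removed too few cells were left to test. They were 2.28 ± 0.54 (0.0178) and 1.91 ± 0.47 (0.0197) higher in the Rosi effect, where 17.9% were called. Ciita, at 110 and 114, 187 and 280, and 101 and 111 CPM, did not pass.

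The DC-like cells of iWAT are 1 cluster, led by cDC1 markers, and its make-up differed by label. Its macrophage markers summed to 3579 and 1851 CPM, 6096 and 6235 CPM, and 3666 and 2423 CPM, with 9 of 10 higher in both ob/ob-Veh libraries than in the others, and its NPVM or monocyte markers to 2691 and 829, 7230 and 9072, and 1805 and 659 CPM, with 6 of 10 higher. The cDC1 marker Clec9a was at 40 to 54 CPM under the label ob/ob-Veh and 162 to 257 CPM in the others, and the cDC2 marker Cd209a at 349 and 398 CPM against 11 to 55 CPM. Whether the change of H2-Oa and H2-Ob is one of cell kinds within the cluster was not tested. Both calls of either effect were lost without ob/ob-Veh 1 or without ob/ob-Veh 2, and the Rosi calls also without ob/ob-Rosi 2; without WT-Veh 1 there were 6 calls in each effect.

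**Figure D5:**
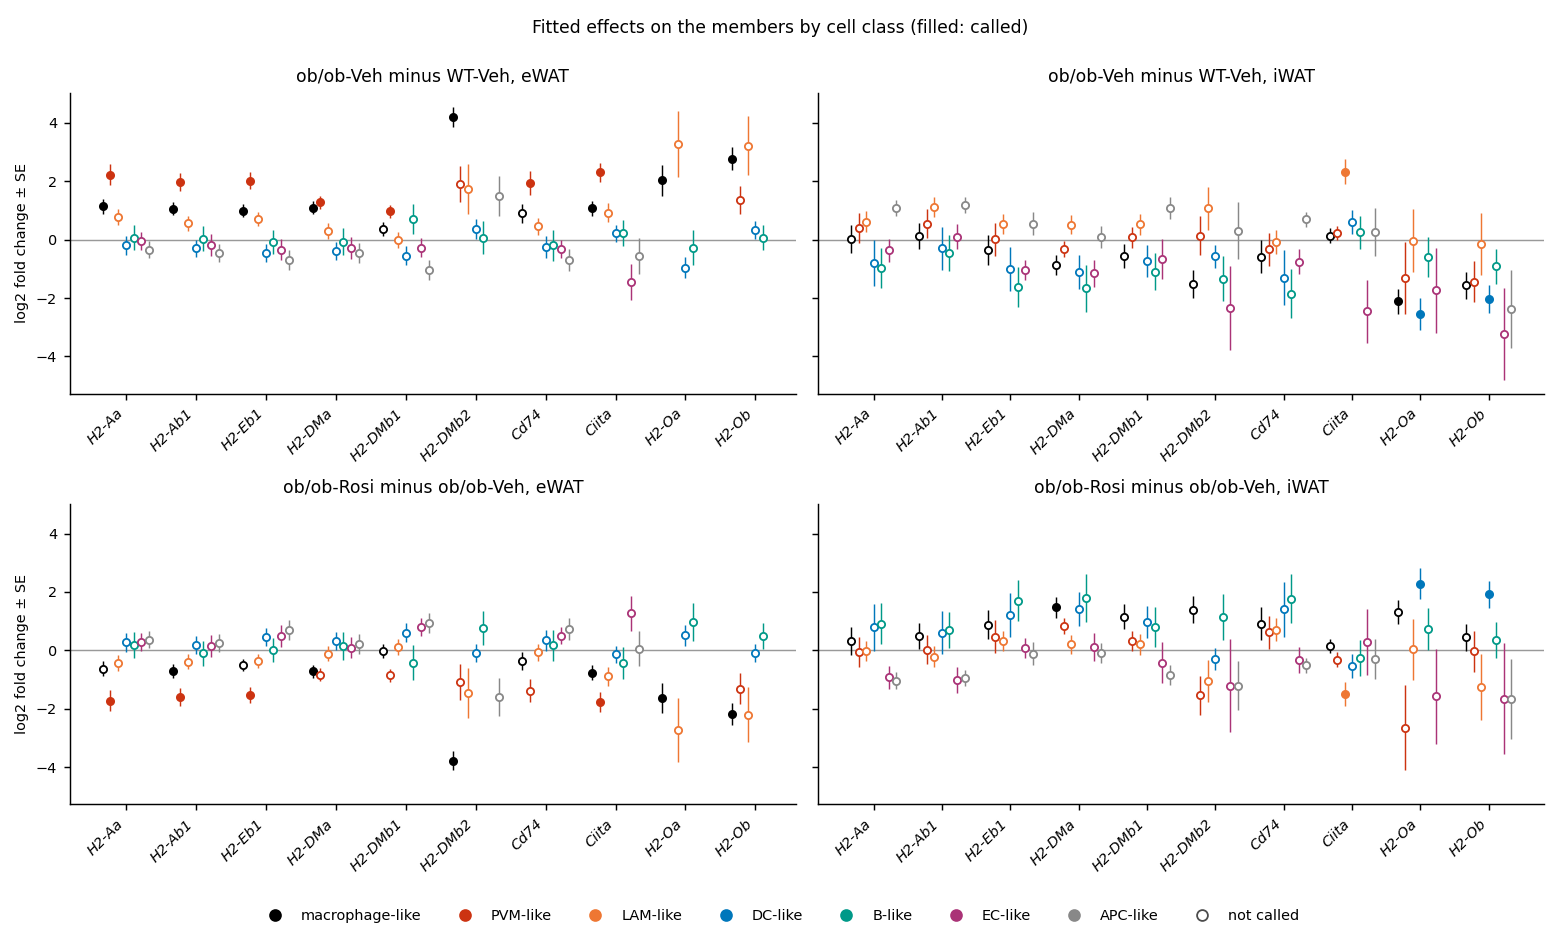
Fitted ob/ob effect (top) and Rosi effect (bottom) on each member by class, in log2 fold change with 1 SE, filled where called. In eWAT the called points are those of macrophage-like and PVM-like cells, and in iWAT those of H2-Oa, H2-Ob, H2-DMa and Ciita.

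In the other classes this fit called no member. In eWAT edgeR called 0 of 10 in DC-like cells (1 and 0 at an unadjusted p under 0.05 in the ob/ob and the Rosi effect, 0 by DESeq2, with 1.34% and 1.58% of genes called) and 0 of 10 in B-like cells (0 and 0, 0 by DESeq2, with 0.524% and 0.572%). It called 0 of 7 tested in EC-like cells (1 and 1, 0 by DESeq2, with 3.85% and 4.11%) and 0 of 8 in APC-like cells (2 and 2, 0 by DESeq2, with 7.45% and 8.19%). In iWAT it called 0 of 10 in B-like cells (2 and 2, 0 by DESeq2, with 1.28% and 2.43%), 0 of 10 in EC-like cells (3 and 2, 0 by DESeq2, with 0.184% and 0.0881%) and 0 of 9 in APC-like cells (4 and 3, 2 and 2 by DESeq2, with 0.384% and 2.18%). A replicate block in the fit gave 1 and 2 called members in eWAT EC-like, 1 and 0 in eWAT APC-like and 1 and 3 in iWAT B-like cells. B-like cells rest on 20 to 1901 cells per library, and a p that misses the threshold there does not show that levels were alike.

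The effects were also compared between classes, by a test of the difference. EC-like and APC-like UMIs are those not read as expression above, so their differences compare summed UMIs and not expression by these cells. The eWAT macrophage-like cells include the cluster without a part name, and without it their called ob/ob effects were smaller, as given above. The ob/ob effect was lower in DC-like than in macrophage-like cells for all 10 members, where 6.85% of genes were called, from −0.90 for Ciita to −3.82 ± 0.28 for H2-DMb2, −2.99 ± 0.41 for H2-Oa and −2.44 ± 0.31 for H2-Ob. It was lower in EC-like cells for 6 (5.37%), with Ciita at −2.38 ± 0.46, and in APC-like cells for 7 (17.5%), with H2-Ob at −2.63 ± 0.72. The Rosi effect was higher in DC-like cells for 7 members (8.37%), with H2-DMb2 at 3.68 ± 0.27, and in EC-like cells for Ciita (1.98 ± 0.43, with 9.67% called). In APC-like cells edgeR called 0, with 7 at an unadjusted p under 0.05 and 5 by DESeq2, where 17.5% were called. In iWAT DC-like cells differed from macrophage-like cells in 0 members for the ob/ob effect (1 at an unadjusted p under 0.05, 0 by DESeq2, 6.21%) and in H2-DMb2 for the Rosi effect (−1.69 ± 0.38, 6.56%). EC-like cells differed in 0 in either effect (0.134% and 0.0968% called), and APC-like cells in H2-DMb1 for the ob/ob effect (1.87, with 8.0% called, 0 members by DESeq2) and in H2-DMa (−1.52), H2-DMb1 (−1.97) and H2-DMb2 (−2.62) for the Rosi effect (10.1%). Leaving out either iWAT ob/ob-Veh library ended these APC-like calls, as did leaving out WT-Veh 2 for the ob/ob effect. In eWAT the ob/ob count fell from 6 to 2 in EC-like cells and from 7 to 1 in APC-like cells without WT-Veh 1, to 0 in EC-like cells without ob/ob-Veh 2 and to 0 in APC-like cells without ob/ob-Veh 1, and was 7 to 10 in DC-like cells.

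The effect in macrophage-like cells also differed between depots. The iWAT minus eWAT difference of the ob/ob effect was −1.98 ± 0.44 for H2-DMa (edgeR adjusted p = 0.0401), −5.74 ± 0.62 for H2-DMb2 (0.00452), −4.16 ± 0.57 for H2-Oa (0.00626) and −4.33 ± 0.60 for H2-Ob (0.00626), where 2.47% of genes were called. H2-DMb2, H2-Oa and H2-Ob were called whichever of the 12 libraries was left out, and H2-DMa was not called without either eWAT WT-Veh library, any ob/ob-Veh library, iWAT WT-Veh 2 or iWAT ob/ob-Rosi 2. That of the Rosi effect was 5.16 ± 0.61 for H2-DMb2 (0.0165) and 2.93 ± 0.55 for H2-Oa (0.0392), where 0.676% were called. The H2-Oa call was lost without any single library other than the iWAT WT-Veh ones, and H2-DMb2 was not called without eWAT ob/ob-Veh 1, eWAT ob/ob-Rosi 2 or either iWAT ob/ob-Veh library. In DC-like cells 0 members differed between depots in either effect, with 2 and 2 at an unadjusted p under 0.05 and 1 and 1 by DESeq2, where 1.4% and 1.78% were called.

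Summed over all cells of a library, the eWAT levels were nearly level between labels. H2-Aa was at 1503 and 2081 CPM under the label WT-Veh, 1807 and 2221 CPM under ob/ob-Veh and 1925 and 2543 CPM under ob/ob-Rosi. Of the 10 members 2 were called there in each effect, a share near that of all genes, and these were the H2-M beta chains. H2-DMb1 was lower by −0.80 ± 0.24 (edgeR adjusted p = 0.0448) and H2-DMb2 higher by 1.52 ± 0.39 (0.0281) in the ob/ob effect, where 21.3% of genes were called, and they were 1.01 ± 0.24 higher (0.0219) and 1.51 ± 0.39 lower (0.0294) in the Rosi effect, where 20.4% were called. H2-DMb1 was at 160 and 164, 109 and 118, and 162 and 212 CPM, and H2-DMb2 at 4.09 and 6.92, 21.2 and 16.4, and 3.74 and 7.03 CPM. Both ob/ob calls were lost without any single WT-Veh or ob/ob-Veh library, both Rosi calls without ob/ob-Rosi 2 or either ob/ob-Veh library, the Rosi call of H2-DMb2 without ob/ob-Rosi 1, and the H2-DMb1 calls without TMM scaling. In iWAT edgeR called 0, with 4 and 2 at an unadjusted p under 0.05 and 4 and 1 by DESeq2, where 5.64% and 0.989% were called.

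Other genes of the pathway were read from 4 lists. In eWAT macrophage-like cells and in the ob/ob effect, where 27.1% of all genes were called, 3 of 13 tested partners of class II presentation were called higher and 4 lower, 4 of 12 class II transcription factors higher and 2 lower, 7 of 18 interferon-γ genes higher and 1 lower, and 4 of 18 class I presentation genes higher and 1 lower. In the Rosi effect, where 28.8% were called, these were 4 and 2, 2 and 3, 1 and 12, and 1 and 4. The members that moved do not all do what a list's name says: among partners the co-stimulators Cd80 (2.94) and Icosl (2.25) were higher and the protease Ctsl (−3.05), which trims the invariant chain in some cells, was lower. Irf4 (2.36) and Creb1 (1.33) were higher and Spi1, encoding PU.1, lower (−1.29). The interferon-induced Cxcl10 (2.89), Gbp3 (2.02) and Gbp5 (1.80) were higher, as were the class I genes H2-Q6 (3.17), H2-Q7 (2.05) and H2-Q4 (1.45), whose reads near-identical copies may share.

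In PVM-like cells of eWAT, where 3.34% of genes were called in the ob/ob effect, 1 of 12 partners was called higher and 2 lower, 2 of 12 transcription factors higher, 2 of 17 interferon-γ genes higher, one of them Ciita, and 1 of 18 class I genes higher and 1 lower. The proteases Ctsd (−1.61) and Ctsl (−1.38) were lower, and Cd83 (1.40), Irf4 (1.43) and Irf1 (1.12) higher. In iWAT DC-like cells, where 8.86% of genes were called in the ob/ob effect, 0 of 11 partners were called, 1 of 12 transcription factors higher and 2 lower, 2 of 18 interferon-γ genes higher and 1 lower, and 0 of 18 class I genes higher and 3 lower, although the class I list's median was 0.39 above 0. Irf8 (−3.16) and Spib (−3.33), transcription factors of dendritic cells, were lower and Irf4 (2.06) higher, and the 3 class I calls were the immunoproteasome genes Psmb8 (−3.08) and Psmb9 (−2.82) and the proteasome activator Psme1 (−2.56). In iWAT macrophage-like cells 7 of 18 class I genes were called higher and 0 lower in the ob/ob effect, where 14.3% of all genes were called, and 2 were called higher and 11 lower in the Rosi effect, where 23.1% were. The gene whose pattern was most like that of H2-Aa, H2-Ab1, H2-Eb1 and Cd74 over 83 sums of class and library was Cd83 (Pearson r = 0.92), followed by Pld4 and Wdfy4 (both 0.91), Unc93b1 and Plek (both 0.89). Among the members H2-Oa (0.72), H2-Ob (0.73) and H2-DMb2 (0.74) were least like it. These sums share libraries and depth.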

How the data were processed

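Libraries were made with the 10x Genomics 3′ v3.1 kit, and the authors took UMI counts on mm10 from Cell Ranger 3.0.2, after demultiplexing with bcl2fastq 2.19.1.403, as the submitters' processing notes and methods give them. The deposited files hold raw UMI counts per gene and barcode, without normalization or pooling. The iWAT files hold no barcode above 22000 UMIs or at 25% mitochondrial UMIs or more. The members and lists, and the tests, were chosen with earlier results of these data known.

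Cells of 700 to 22000 UMIs, 200 to 6000 genes and under 25% mitochondrial UMIs were kept and clustered per depot (2000 variable genes, 25 components, 20 neighbours, Leiden resolution 1) without the 10 members and H2-Eb2, with scanpy 1.11.5. Clusters were named where at least 3 markers of a class were found in 20% of cells. All 10 members are named in every class, and other genes are those called, largest first, at most 3 per list. Doublets were kept.

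For each class, UMI counts were added up within a library (at least 20 cells) and tested with edgeR 4.0.16 in R 4.3.3 (TMM, filterByExpr, quasi-likelihood test, Benjamini-Hochberg adjustment, 3 residual degrees of freedom). SEs are the log2 fold change over the root of F. Class differences were fitted with the library as a term, depot differences with an interaction. The script was tested on simulated data. An exact permutation test over 2 against 2 libraries cannot go below a two-sided p of 0.33, so none was used. Shares are given per library, as ranges, without intervals for counting error. Alternatives were DESeq2 1.42.0, no TMM, no low-count filter, no minimum change, a replicate block, each library left out, doublets or cells with other classes' genes removed, thinning to 700 UMIs, at least 1500 UMIs, other clusterings (with class II genes, resolution 0.5 and 2) and, added after seeing the data, macrophage-like cells of a named part.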

Additional observations from a re-analysis of the deposited data

Results flagged for a closer look

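In macrophage-like cells 6 effects differed between iWAT and eWAT by a test of the difference itself (edgeR interaction of depot and label, 12 libraries). For the ob/ob effect the iWAT minus eWAT difference was −1.98 for H2-DMa, −5.74 for H2-DMb2, −4.16 for H2-Oa and −4.33 for H2-Ob, and for the Rosi effect 5.16 for H2-DMb2 and 2.93 for H2-Oa. Both differences of the Rosi effect and that of H2-DMa were lost when some single libraries were left out. The eWAT cluster without a part name was 23.5% of the macrophage-like cells labelled ob/ob-Veh in eWAT, and its part in these differences was not tested. In iWAT the macrophage-like cluster without a part name had 11 and 6 cells under that label. NPVM or monocyte markers summed to 7230 and 9072 CPM in iWAT DC-like cells labelled ob/ob-Veh, against 659 to 2691 CPM in the others. Whether like cells were named macrophage-like in eWAT and DC-like in iWAT was not tested. The differences of H2-Oa rested on as few as 10 H2-Oa UMIs in a library of eWAT and 8 in a library of iWAT. Groups of 2 libraries allow no check for outliers.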

How the results depend on the processing

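Of the summary results, 419 values under other settings stayed within 1.5 times the main count or 1 SD and 95 did not; with a library left out 262 stayed and 98 did not. Of single genes, 3295 kept direction and side of the threshold, 93 passed only under the alternative, 59 no longer passed and 1 turned (with a library left out 1959, 58, 191 and 0): H2-DMa in the eWAT Rosi effect was 0.0763 (adjusted p 0.810) in macrophage-like cells of a named part. B-like cells rest on 20 to 1901 cells per library, which limits what could be detected in them, and the cause of the changes below was not tested.

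Calls over the 5 classes changed as follows. eWAT ob/ob higher was 8 (3 in macrophage-like cells of a named part, 4 thinned), lower 0 (1 without low-count filter, 2 with the replicate block). eWAT Rosi lower was 6 (2 with cells holding other classes' genes removed, 3 with clusters with class II genes, 1 named part, 1 thinned), higher 0 (1 no filter, 2 replicate block). iWAT ob/ob lower was 3 (5 DESeq2, 0 other-class cells removed, 8 no filter, 6 replicate block, 0 resolution 0.5, 0 thinned), higher 0 (2 DESeq2, 2 other-class cells removed, 3 no filter). iWAT Rosi higher was 3 (6 DESeq2, 1 other-class cells removed, 6 no filter, 9 replicate block, 0 resolution 0.5, 1 thinned), lower 0 (2 DESeq2, 2 no filter, 2 thinned). For ob/ob-Rosi minus WT-Veh in iWAT, lower was 0 (1 DESeq2, 5 no filter).

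In the macrophage parts, eWAT Rosi lower was 4 (7 DESeq2, 10 with class II genes, 7 no filter, 7 replicate block), iWAT ob/ob higher 1 (2 DESeq2, 0 other-class cells removed, 2 without TMM, 0 resolution 0.5, 0 thinned), lower 0 (1 no filter), iWAT Rosi higher 0 (1 DESeq2, 1 replicate block), lower 1 (0 other-class cells removed, 3 no filter, 0 resolution 0.5, 0 thinned), and ob/ob-Rosi minus WT-Veh lower 0 (1 no filter). With clusters with class II genes or resolution 0.5 the iWAT PVM-like cluster of the libraries labelled ob/ob-Veh was unnamed. Whole-SVF eWAT Rosi higher was 1 (2 DESeq2, 0 without TMM), ob/ob lower 1 (0 without TMM, 0 no filter); iWAT Rosi higher 0 (1 DESeq2, 1 no filter), ob/ob lower 0 (4 DESeq2, 4 no filter), ob/ob-Rosi minus WT-Veh lower 0 (1 DESeq2, 1 no filter).

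Class differences: eWAT Rosi higher 8 (14 DESeq2, 16 without TMM, 22 no filter); iWAT Rosi higher 0 (1 no filter), lower 4 (9 no filter), ob/ob higher 1 (0 DESeq2, 7 no filter), ob/ob-Rosi minus WT-Veh lower 0 (3 no filter). Depot differences: Rosi higher 2 (5 DESeq2, 5 no filter, 6 replicate block), lower 0 (1 DESeq2, 2 no filter); ob/ob higher 0 (3 DESeq2, 2 no filter), lower 4 (7 no filter); ob/ob-Rosi minus WT-Veh lower 0 (2 no filter).

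Summed median CPM of H2-Aa, H2-Ab1, H2-Eb1 and Cd74: eWAT APC-like 964 (648 with other-class cells removed); eWAT EC-like 2992 (957 other-class cells removed, 1877 doublets removed, 1708 resolution 2); iWAT EC-like 1302 (618 other-class cells removed); eWAT T/NK/ILC 7141 (1280 other-class cells removed, 4420 resolution 0.5, 4452 thinned); iWAT T/NK/ILC 3899 (687 other-class cells removed, 2250 with class II genes, 2618 resolution 2, 2701 thinned); mesothelial-like 1141 (520.0 other-class cells removed, 769 doublets removed); mural-like 4597 (2702 doublets removed, 1868 resolution 0.5). DC-like share of class II UMIs in eWAT 20.8% (6.41% other-class cells removed, 8.85% resolution 0.5, 8.13% resolution 2) and in iWAT 9.71% (4.08% other-class cells removed, 32.8% resolution 0.5, 18.4% resolution 2); macrophage-like eWAT 69.3% (81.1% other-class cells removed).

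With 1 library left out, the lone library of its label assumed to vary like the others, ranges were: class calls eWAT ob/ob higher 2 to 9, Rosi lower 2 to 3; iWAT ob/ob higher 0 to 3, lower 0 to 12, Rosi higher 0 to 11, lower 0 to 4, ob/ob-Rosi minus WT-Veh lower 0 to 10; macrophage parts eWAT ob/ob higher 0 to 7, Rosi lower 0 to 2; iWAT ob/ob higher 0 to 1, lower 0 to 1, Rosi higher 0 to 1, lower 0 to 3, ob/ob-Rosi minus WT-Veh lower 0 to 1; class differences eWAT ob/ob lower 13 to 23, Rosi higher 6 to 22; iWAT ob/ob higher 0 to 8, lower 0 to 8, Rosi higher 0 to 1, lower 1 to 15, ob/ob-Rosi minus WT-Veh higher 0 to 1, lower 0 to 12; depot differences Rosi higher 0 to 5, ob/ob-Rosi minus WT-Veh lower 0 to 1; whole SVF eWAT ob/ob higher 0 to 1, lower 0 to 1, Rosi higher 0 to 2, lower 0 to 1; iWAT ob/ob lower 0 to 3, Rosi higher 0 to 1, ob/ob-Rosi minus WT-Veh lower 0 to 3.

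Nothing in the labels says that a replicate number marks a shared animal or day, and 2 numbers per group are too few to tell from the data. Deviations of same-numbered libraries correlated from −0.208 to 0.762 over genes. They were above 0.1 between all 3 groups in EC-like, APC-like and all cells of eWAT and EC-like cells of iWAT. In the other classes some pairs of groups fell below this. The highest were between WT-Veh and ob/ob-Rosi of iWAT, at 0.761 in macrophage-like, 0.617 in DC-like, 0.762 in APC-like and 0.651 in all cells. In these same iWAT sums the correlations with ob/ob-Veh were −0.208 to 0.095. In classes without a call, the replicate block gave calls for Ciita (−1.45, adjusted p 0.0249) in the ob/ob effect and for H2-DMb1 (0.86, 0.0265) and Ciita (1.22, 0.0496) in the Rosi effect of eWAT EC-like cells, for H2-DMb1 (−1.07, 0.0374) in the ob/ob effect of eWAT APC-like cells, for H2-Aa, Ciita and H2-Ob in the ob/ob effect of eWAT LAM-like cells, for H2-Eb1 in both effects and H2-DMa and Cd74 in the Rosi effect of iWAT B-like cells, and for H2-DMa in the Rosi effect of iWAT PVM-like cells. Beyond the counts given above with the replicate block, it moved none by more than 1.5 times.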
